A study of Mus musculus with 12 samples.

Results

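The genes of cholesterol synthesis, sterol transport and SREBP regulation, with the main SREBP targets of fatty acid synthesis, were examined in C2C12 cells that had lost most of their Kctd10 mRNA. The set was fixed as a list of gene names, by pathway role and with earlier results of these data known, and held 31 genes of 13069 tested. All 31 passed the filter on low values. It comprised 8 enzymes that lead to farnesyl and geranylgeranyl diphosphate, 11 enzymes of squalene and sterol synthesis, 5 regulators, 3 genes of sterol transport and 4 of fatty acid synthesis.

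Cells build cholesterol from acetyl-CoA through mevalonate, farnesyl diphosphate, squalene and lanosterol. The enzymes are controlled together by SREBP transcription factors, which are made as membrane proteins of the endoplasmic reticulum. When membrane sterol is low, the escort protein SCAP carries SREBP to the Golgi for cleavage, and the released part enters the nucleus. When sterol is high, the INSIG proteins hold SCAP and SREBP back. SREBP binds weakly on its own and works with the factors NF-Y and Sp1 at its target promoters. Myoblasts use cholesterol and unsaturated lipids in the membranes that merge when they fuse.

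C2C12 is a mouse myoblast line that forms multinucleated myotubes when serum is lowered. RNA of 12 libraries was compared in 4 groups of 3. The group D0 siKctd10 received an siRNA against Kctd10, whose product brings substrates to CUL3 ubiquitin ligases, and D0 siControl received a non-targeting siRNA. Both D0 groups were kept below confluence in medium with 10% FBS and were collected 48 h after siRNA. The groups D2 siKctd10 and D2 siControl received the same siRNAs, went into medium with 2% horse serum 24 h later and were collected 48 h after differentiation began. The time since siRNA, the medium, the density and the day therefore changed together between D0 and D2 and cannot be told apart. A single siRNA sequence was used against Kctd10, so an effect of losing Kctd10 and one of that sequence cannot be told apart either. Separate cultures are not stated for the replicates, and the p-values therefore cover the spread among these libraries, which may be technical.

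The libraries held an estimated 12.5 to 18.1 M assigned read pairs and 12016 to 12597 genes with a TPM of at least 1, a unit scaled for transcript length and library size, so that levels of different genes can be compared. Kctd10 averaged 23.1 ± 2.69 TPM in D0 siKctd10 and 266 ± 7.32 TPM in D0 siControl libraries (SD, n = 3 each). It averaged 32.0 ± 4.58 TPM in D2 siKctd10 and 283 ± 6.77 TPM in D2 siControl libraries. An exact permutation test (two-sided) could not go below p = 0.1 with 3 libraries a group and reached that value at D0 and at D2. The siKctd10 libraries numbered 3 stood apart on the second principal component, with scores of -41.8 (D0) and -42.1 (D2), while the remaining siKctd10 libraries scored -20.8 to -1.33. The member calls that changed without 1 of them are given with each comparison. All 8 markers of myoblasts and muscle were measured, and their summed TPM was 2249 to 2787 in D2 siKctd10 and 3378 to 3677 in D2 siControl libraries, against 594 to 676 in D0 siKctd10 and 533 to 550 in D0 siControl libraries. Of 8 adipocyte markers 2 passed the filter, Cebpa and Pparg, and Adipoq, Plin1, Fabp4, Lep and Cidec were listed at 0 in all 12 libraries. The summed TPM of that list was 29.7 to 30.7 in D2 siKctd10, 15.9 to 18.5 in D2 siControl, 32.0 to 34.2 in D0 siKctd10 and 28.5 to 35.7 in D0 siControl libraries. Of 6 macrophage and leukocyte markers 1 passed, and none of 4 endothelial markers passed, with summed TPM of at most 2.90 and 1.65. In RNA of whole cultures, fewer cells of a type and less RNA per cell cannot be told apart.

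The siKctd10 sequence is shown because some members hold letters that pair with its seed. Its guide strand, in capitals at the seed (bases 2 to 8 from the 5′ end), was as follows, with the 3 sites in 3′ UTRs of members that pair with at least 6 seed bases. Capitals in the sites mark the paired seed bases, and the sites are given on the transcript strand of mm10.
siKctd10 guide: uUAUCGUCagaauugcugg
Scd2, chr19:44306266-44306272, plus strand: agtcccactctGACGATAatgagttca
Insig1, chr5:28076920-28076926, plus strand: taggctgggctGACGATAaatgactcc
Sc5d, chr9:42255083-42255088, minus strand: gcatctttaaatACGATAgaaaataag
The Scd2 site lies in exon 6 of 6 and continues the pairing to guide bases 1 to 11. Among the 11983 tested genes with an annotated 3′ UTR, no other held that run of 11 bases in its 3′ UTR, and Kctd10 itself holds it outside, within its 19-base match to the guide. The Insig1 site lies in exon 5 of 5 and pairs with guide bases 1 to 10. The 7-base site GACGATA was present in the 3′ UTR of 2 of 31 members, against 129 of the 11983 genes (1.08%). The corresponding 7-base site of the siControl guide was present in 10 of 31 members, near the share of 28.6% of the genes. The 10 were Ggps1, Hsd17b7, Sc5d, Insig1, Srebf1, Abca1, Fasn, Scd1, Scd2 and Acaca. A match of letters describes the sequence and does not show that the site is used.

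The promoters of 24 members were found in RefSeq (build GRCm38.p6, 250 bases before to 50 after each start site). Promoters of Fdps, Fdft1, Sqle, Stard4, Npc1, Scd1 and Scd2 were not used. The motifs searched, on both strands, were the sterol element TCACNCCAC, the NF-Y box CCAAT, the Sp1 box GGGCGG and the E-box CACGTG. The stretches below lie before the start sites of 6 members whose levels are described next, with these motifs in capitals as found on either strand.
Hmgcs1, chr13:119690149-119690287, plus strand: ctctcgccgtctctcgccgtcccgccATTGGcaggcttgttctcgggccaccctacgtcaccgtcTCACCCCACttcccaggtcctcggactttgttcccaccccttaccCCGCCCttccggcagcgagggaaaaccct
Idi1, chr13:8885527-8885605, plus strand: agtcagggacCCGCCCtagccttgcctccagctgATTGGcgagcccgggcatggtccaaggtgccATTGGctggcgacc
Cyp51, chr5:4104698-4104791, minus strand: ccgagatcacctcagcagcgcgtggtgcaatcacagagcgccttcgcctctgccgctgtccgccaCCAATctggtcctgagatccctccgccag
Msmo1, chr8:64733579-64733698, minus strand: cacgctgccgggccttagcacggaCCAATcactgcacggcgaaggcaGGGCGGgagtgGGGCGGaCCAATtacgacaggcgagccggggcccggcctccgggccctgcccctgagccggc
Insig1, chr5:28071162-28071265, plus strand: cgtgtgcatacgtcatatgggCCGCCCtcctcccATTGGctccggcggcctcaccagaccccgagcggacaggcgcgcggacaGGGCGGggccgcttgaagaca
Fasn, chr11:120824548-120824671, minus strand: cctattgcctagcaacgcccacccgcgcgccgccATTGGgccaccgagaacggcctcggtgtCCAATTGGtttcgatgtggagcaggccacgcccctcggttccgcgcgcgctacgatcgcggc
Hmgcs1 alone held the spelled sterol element, 137 bases before its start, with an NF-Y box upstream and an Sp1 box downstream of it in the stretch shown. This element was in 1 of 24 members' promoters and in 1.24% of 32851 promoters. The NF-Y box was in 20 of 24 members, against 37.4% of promoters and 41.1% of genes with any promoter in the table, and the Sp1 box was also in 20 of 24, against 35.7% of promoters and 38.2% of genes. The E-box was in 6 of 24 members and 8.09% of genes. These shares cover all promoters in the table and were not limited to tested genes, while every member passed the filter on low values. Members and background were therefore not matched for expression, and the counts are a description only. In Msmo1 a pair of NF-Y boxes and a pair of Sp1 boxes lay within the stretch shown, and in Fasn the NF-Y boxes read from both strands overlapped.

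The first comparison asked how the set differed between siKctd10 and siControl in undifferentiated cells. Of 31 members 9 rose and 1 fell. Those that rose were the enzymes Idi1, Fdft1, Cyp51 and Msmo1, the regulators Insig1 and Srebf1, the carrier Stard4, and the fatty acid genes Fasn and Scd1. Scd2 fell. Over all 13069 tested genes 1.48% were called higher and 0.964% lower, 2.45% in all, by limma at an adjusted p under 0.05. The median log2 fold change of the members was 0.42, against 0.05 over all genes, and 27 of 31 were above 0, against 56.3% of all genes. With median-ratio scaling, quantile normalization and voom the members' median was 0.36, 0.36 and 0.34, against 0.00, -0.01 and -0.01 over all genes. The largest ratio of mean TPM among the 9 that rose was 1.52, for Fdft1.

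**Figure D1:**
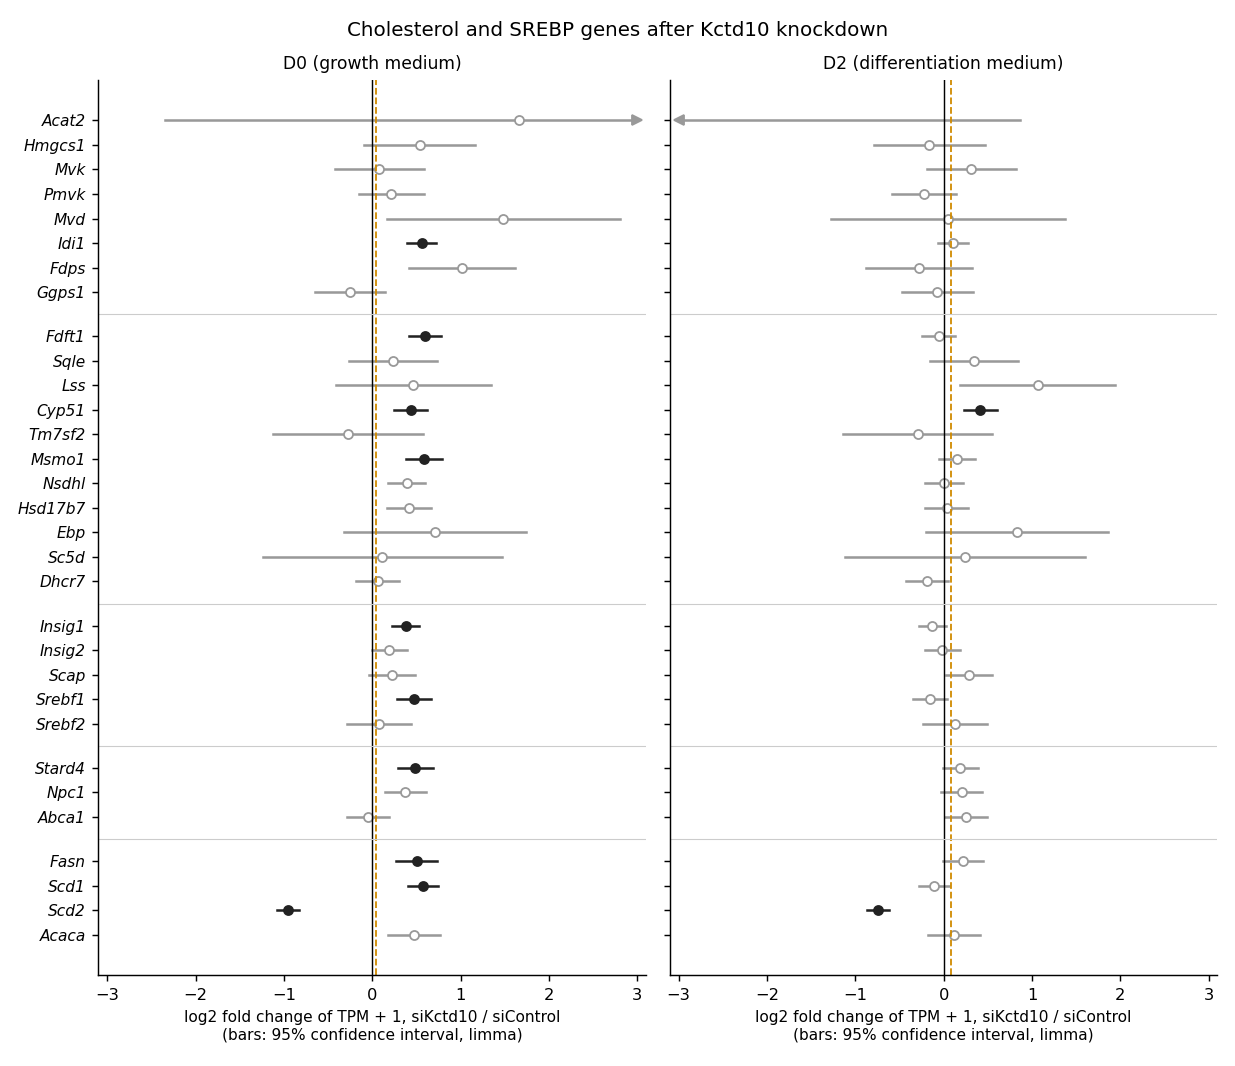
Log2 fold change of TPM + 1 (x axis, siKctd10 over siControl) with its 95% confidence interval from limma for the 31 members in pathway order, at D0 on the left and D2 on the right; filled black points passed an adjusted p of 0.05, and the dashed line is the median of all genes. At D0 9 filled points lie right of 0 and Scd2 lies left; at D2 Cyp51 and Scd2 are filled, and the Acat2 point at D2 (-3.13) lies off the axis, where an arrow marks its interval.

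The count at D0 depended on the libraries in the model. When the D2 libraries were left out of the model, Scd2 alone was called. Leaving out 1 library at a time left 3 higher without the D0 siControl library numbered 1, 5 without that numbered 2, and 5 and 4 without the D0 siKctd10 libraries numbered 1 and 2. Scd2 was called lower each time. Without the D0 siKctd10 library numbered 3, which stood apart, 9 were higher and 1 lower, but Cyp51 and Fasn were no longer among them and Nsdhl (limma adjusted p = 0.047) and Hsd17b7 (adjusted p = 0.024) were.

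Among the enzymes that lead to farnesyl and geranylgeranyl diphosphate, 1 of 8 rose at D0, against 1.48% of all tested genes. With so few genes a role, no count by role at D0 is read as particular to it. Idi1, which interconverts the isopentenyl and dimethylallyl building blocks, had 194, 203 and 173 TPM in D0 siKctd10 and 125, 127 and 132 TPM in D0 siControl libraries. All siKctd10 libraries lay above all siControl libraries. Its log2 fold change was 0.56 (SE 0.07, limma adjusted p = 0.0047), and both exons that could be compared were higher, by 2.16 times in the 5′ exon and 1.39 times in the 3′ exon. The median of the 8 genes was 0.55, against 0.05 over all genes. It includes Acat2 (1.66, SE 1.79) and Mvd (1.49, SE 0.59), whose estimates could not be judged, as described below.

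Fdps, which makes farnesyl diphosphate, had 215, 193 and 176 TPM in D0 siKctd10 and 75.3, 139 and 82.4 TPM in D0 siControl libraries. The groups did not overlap, but the siControl libraries spread widely, and the log2 fold change of 1.02 (SE 0.27) did not pass (limma adjusted p = 0.09). It was 0.44 with voom and 0.40 with the sum over exons above 0 in every library, and it passed without the D0 siControl library numbered 2 (adjusted p = 0.048). Hmgcs1, the cytosolic HMG-CoA synthase that opens the mevalonate branch, had 589, 701 and 654 TPM in D0 siKctd10 and 435, 414 and 491 TPM in D0 siControl libraries. These groups did not overlap either, and the log2 fold change of 0.54 (SE 0.28) had a limma adjusted p of 0.40. Pmvk, the phosphomevalonate kinase, had 44.1, 40.9 and 39.1 TPM in D0 siKctd10 and 35.0, 44.1 and 28.8 TPM in D0 siControl libraries, which overlapped. The mevalonate kinase Mvk (0.08) and the geranylgeranyl diphosphate synthase Ggps1 (-0.25) did not pass, with means of 32.1 and 41.6 TPM in D0 siKctd10 and 29.5 and 50.7 TPM in D0 siControl libraries. Their directions were not stable, since Mvk was -0.09 with voom and -0.17 with the sum over exons above 0 in every library, and Ggps1 was 0.92 with those exons.

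Acat2 and Mvd could not be judged from these estimates. Acat2, the cytosolic thiolase at the start of the pathway, had 303, 321 and 10.2 TPM in D0 siKctd10 and 220.2, 14.4 and 9.20 TPM in D0 siControl libraries. The low values went with the last exon, where coverage per M read pairs was 51.1, 55.2 and 0.013 in D0 siKctd10 and 41.9, 0.17 and 0.033 in D0 siControl libraries. Mvd, the mevalonate diphosphate decarboxylase, had 86.9, 102 and 61.5 TPM in D0 siKctd10 and 7.72, 47.8 and 59.5 TPM in D0 siControl libraries, and its log2 fold change of 1.49 had an SE of 0.59. Within some group 5 of 31 members spread by more than 3-fold, namely Acat2, Sc5d, Mvd, Tm7sf2 and Ebp. The part that the exon estimates play in these jumps was not tested.

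Among the squalene and sterol enzymes 3 of 11 rose at D0, against 1.48% of all tested genes. Fdft1, squalene synthase and the first enzyme committed to sterols, had 73.5, 74.0 and 70.7 TPM in D0 siKctd10 and 48.6, 49.9 and 44.8 TPM in D0 siControl libraries. Msmo1, a methylsterol monooxygenase, had 694, 668 and 565 TPM in D0 siKctd10 and 418, 431 and 428 TPM in D0 siControl libraries. Cyp51, the lanosterol demethylase, had 236, 266 and 247 TPM in D0 siKctd10 and 179, 186 and 188 TPM in D0 siControl libraries. None of the 3 overlapped between groups, and in each the siControl libraries lay close together.

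The log2 fold changes were 0.60 for Fdft1 (SE 0.08, limma adjusted p = 0.006), 0.59 for Msmo1 (SE 0.09, adjusted p = 0.012) and 0.44 for Cyp51 (SE 0.08, adjusted p = 0.025). Exon coverage of Fdft1 was higher in all siKctd10 libraries in 2 of 2 exons compared, by 1.53 times and, in the 3′ exon of 1818 bases, 1.27 times. The log2 fold change of Fdft1 was 0.38 to 0.63 over 16 alternatives. Coverage of Msmo1 was higher in all siKctd10 libraries in 3 of 4 exons, but its exons of 285 and 2928 bases share bases and are not separate. For Cyp51 exon coverage was higher in all siKctd10 libraries in 1 of 4 exons, the 3′ one of 2630 bases, and all 4 ratios of means were above 1, at 1.05 to 1.41. Cyp51 lost its call in 9 of 16 alternatives, among them quantile normalization and the sum over exons above 0 in every library, and over all 16 its log2 fold change was 0.27 to 0.47.

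Other enzymes of this stretch had groups that did not overlap but missed the threshold. The share of all tested genes without overlap was not counted, so a lack of overlap is given for any member as a description only. Nsdhl, a dehydrogenase that removes methyl groups of the sterol core, had 117, 129.6 and 105 TPM in D0 siKctd10 and 87.2, 87.2 and 92.2 TPM in D0 siControl libraries (log2 fold change 0.39, SE 0.09, limma adjusted p = 0.069). Hsd17b7, its partner keto reductase, averaged 108 ± 15.8 TPM in D0 siKctd10 and 79.6 ± 3.99 TPM in D0 siControl libraries (SD, n = 3 each; limma adjusted p = 0.09). Squalene epoxidase Sqle (0.24), lanosterol synthase Lss (0.47), the sterol desaturase Sc5d (0.11) and Dhcr7 (0.06), the last enzyme of the branch through dehydrocholesterol, had groups that overlapped. The sterol reductase Tm7sf2 had the lowest level of the enzymes, with means of 8.88 TPM in D0 siKctd10 and 11.5 TPM in D0 siControl libraries. The log2 fold changes of Sc5d, Dhcr7 and Tm7sf2 changed sign with the sum over exons above 0 in every library.

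Ebp, a sterol isomerase on the X chromosome with 1 transcript, was high only in the siKctd10 libraries numbered 3. It had 78.9, 64.3 and 203 TPM in D0 siKctd10 and 68.7, 52.7 and 63.5 TPM in D0 siControl libraries, and 76.0, 88.1 and 220.4 TPM in D2 siKctd10 and 70.4, 62.8 and 58.8 TPM in D2 siControl libraries. In its 3′ exon of 505 bases, coverage per M read pairs was 48.3 and 45.2 in those 2 libraries and 4.62 to 7.94 in the other 10. In the exon of 358 bases upstream it was 10.6 and 17.9 in those libraries and 14.5 to 20.9 in the other 10. What the higher 3′ coverage came from was not tested.

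Of 5 regulators 2 rose at D0, against 1.48% of all tested genes. Insig1, which retains SCAP in the endoplasmic reticulum and is itself a classic SREBP target, had 212, 214 and 200.4 TPM in D0 siKctd10 and 163, 160.1 and 157 TPM in D0 siControl libraries. Srebf1, which encodes the SREBP with most effect on fatty acid genes, had 109, 119.9 and 103 TPM in D0 siKctd10 and 72.7, 80.1 and 85.0 TPM in D0 siControl libraries. Neither overlapped between groups.

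The log2 fold changes were 0.38 for Insig1 (SE 0.07, limma adjusted p = 0.021) and 0.48 for Srebf1 (SE 0.09, adjusted p = 0.022). The Insig1 3′ UTR holds the 10-base match to the siKctd10 guide shown above. Coverage was higher in all siKctd10 libraries in 2 of 3 Insig1 exons. For Srebf1 the exon estimates gave no uniform picture, with 2 of 17 exons above, 1 below and 14 overlapping, and ratios of 0.54 to 3.93. Its alternative first exons, which make the forms 1a and 1c, were not told apart here. Srebf2, the main driver of cholesterol genes, averaged 210.4 ± 42.6 TPM in D0 siKctd10 and 198 ± 20.4 TPM in D0 siControl libraries, with overlap. Scap (0.22) and Insig2 (0.20) overlapped too.

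Of 3 transport genes 1 rose at D0, against 1.48% of all tested genes. Stard4, a cytosolic sterol carrier under SREBP control, had 121, 129 and 116 TPM in D0 siKctd10 and 81.7, 84.2 and 95.1 TPM in D0 siControl libraries, which did not overlap. Its log2 fold change was 0.49 (SE 0.09, limma adjusted p = 0.023), with all 3 exons compared higher in every siKctd10 library. The Stard4 exon of 115 bases lies within that of 499 bases, so these are not separate exons. Npc1, which exports cholesterol from lysosomes, had 46.8, 45.9 and 42.8 TPM in D0 siKctd10 and 33.1, 31.8 and 39.2 TPM in D0 siControl libraries (log2 fold change 0.38, limma adjusted p = 0.10). Abca1, the efflux pump induced by sterol excess through LXR, had 0.856, 0.820 and 0.731 TPM in D0 siKctd10 and 0.835, 0.810 and 0.929 TPM in D0 siControl libraries. Its groups overlapped at a level under 1 TPM.

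**Figure D2:**
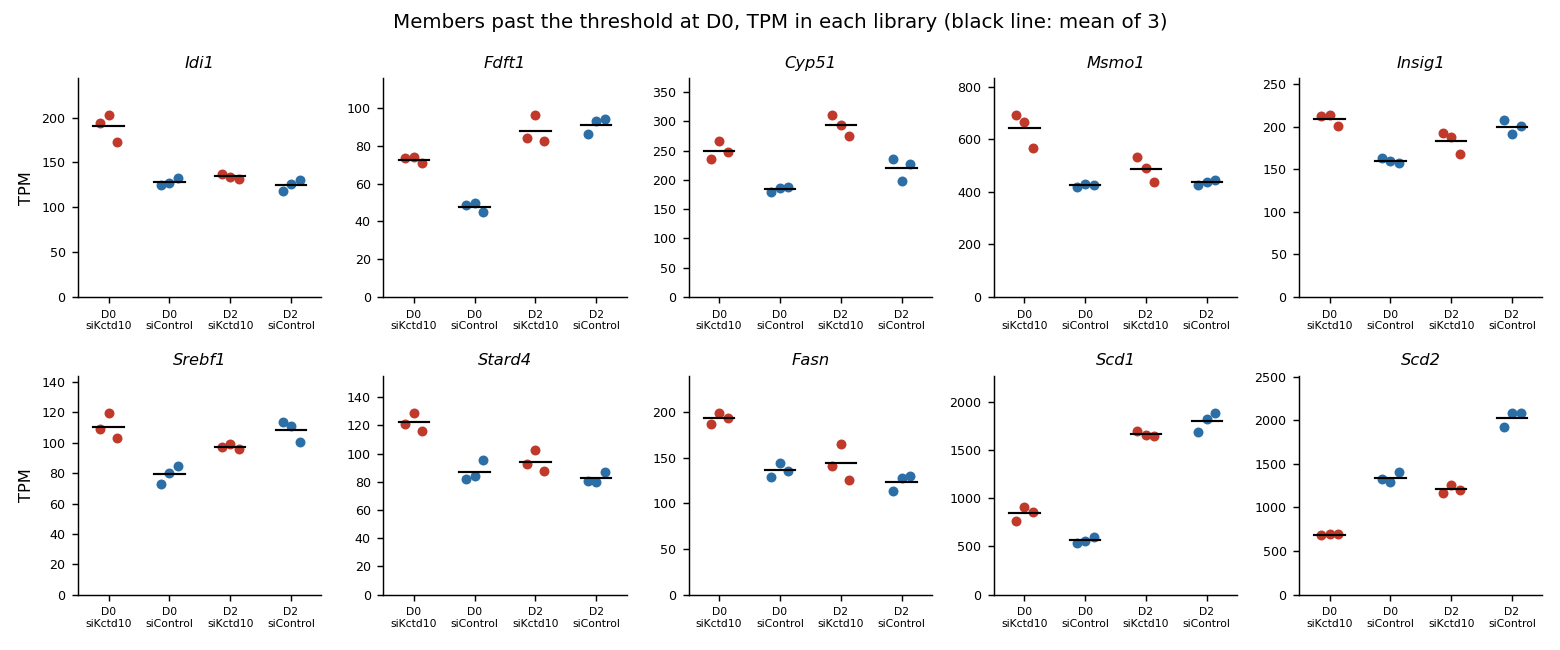
TPM (y axis, from 0) in each of the 12 libraries for the 10 members past the threshold at D0, with siKctd10 in red and siControl in blue and the mean of 3 libraries as a black line. At D0 red lies above blue in 9 panels and below it for Scd2; at D2 red and blue lie close except for Cyp51 and Scd2.

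The fatty acid genes split at D0. Fasn, fatty acid synthase, had 186, 199 and 194 TPM in D0 siKctd10 and 129, 144 and 135 TPM in D0 siControl libraries. Scd1, a stearoyl-CoA desaturase that puts the double bond into saturated fatty acids, had 763, 906 and 862 TPM in D0 siKctd10 and 539, 557 and 596 TPM in D0 siControl libraries. Its close relative Scd2 had 679, 691 and 696 TPM in D0 siKctd10 and 1323, 1287 and 1404 TPM in D0 siControl libraries. Fasn and Scd1 were higher in all siKctd10 libraries, and Scd2 was lower in all, at 51.5% of its siControl mean.

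The log2 fold changes were 0.50 for Fasn (SE 0.10, limma adjusted p = 0.034), 0.58 for Scd1 (SE 0.07, adjusted p = 0.0043) and -0.96 for Scd2 (SE 0.06, adjusted p = 5.9e-05). Acaca, the acetyl-CoA carboxylase that feeds Fasn, had 99.9, 114 and 107 TPM in D0 siKctd10 and 64.5, 83.2 and 84.3 TPM in D0 siControl libraries, which did not overlap, and its log2 fold change of 0.47 (SE 0.13) did not pass (adjusted p = 0.11). Fasn lost its call in 7 of 16 alternatives, including each in which a D0 library was left out. Scd2 kept its call and direction in all 16, at -1.05 to -0.92.

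Scd2 and Scd1 changed places with the siRNA. The ratio of Scd2 to Scd1 TPM was 0.890, 0.763 and 0.808 in D0 siKctd10 and 2.45, 2.31 and 2.36 in D0 siControl libraries. It was 0.689, 0.761 and 0.731 in D2 siKctd10 and 1.14, 1.15 and 1.101 in D2 siControl libraries. Scd1 was thus the more abundant of the pair in all 6 siKctd10 libraries and Scd2 in all 6 siControl libraries. Scd2 made up 45.0 ± 1.93% of the sum of both in D0 siKctd10 and 70.3 ± 0.62% in D0 siControl libraries (SD, n = 3 each), and 42.1 ± 1.22% in D2 siKctd10 and 53.0 ± 0.55% in D2 siControl libraries. A test of this share was not planned, and its groups did not overlap on either day. An exact permutation test (two-sided) was therefore bound to give its lowest possible value, p = 0.1, at D0 and at D2. It adds nothing to the values listed. The sum of both averaged 1532 TPM in D0 siKctd10 and 1902 TPM in D0 siControl libraries, and 2882 TPM in D2 siKctd10 and 3834 TPM in D2 siControl libraries.

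**Figure D3:**
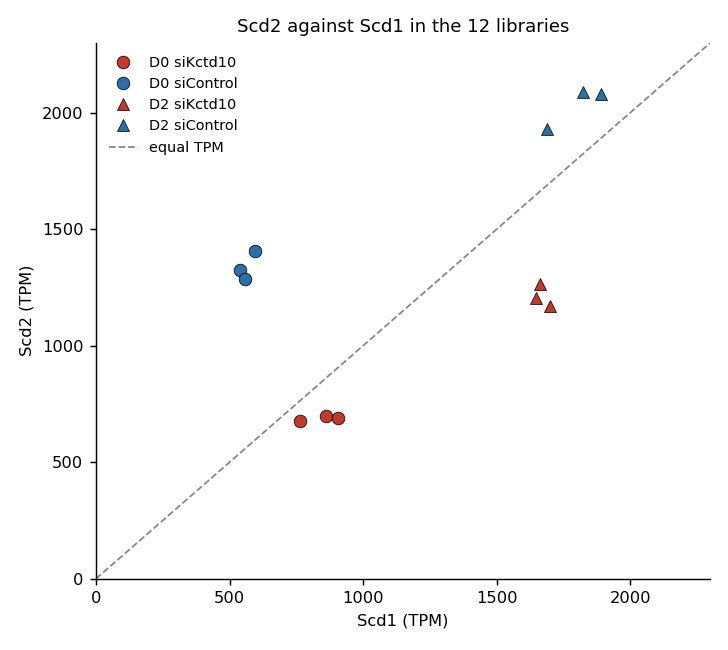
Scd2 TPM (y axis) against Scd1 TPM (x axis) in the 12 libraries, with circles for D0, triangles for D2, red for siKctd10 and blue for siControl, and a dashed line of equal TPM. All 6 siKctd10 libraries lie below the line and all 6 siControl libraries above it.

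Coverage along the genes showed where these differences lay. In Scd2 the 5 exons with reads in every library were lower in all D0 siKctd10 than in all D0 siControl libraries, at 0.42 to 0.66 of the siControl mean, and the same held at D2, at 0.48 to 0.62. The 3′ exon of 3862 bases, which holds the site shown above, was at 0.48 at D0 and 0.56 at D2, and the 5′ exon was at 0.55 and 0.62. In Scd1 the rise at D0 lay in the 3′ exon of 3669 bases (1.44 times) and the 5′ exon (1.37 times), and the 3 compared exons between them overlapped, at 0.94 to 1.07 times. At D2 the compared Scd1 exons were all below the siControl mean, at 0.73 to 0.96 times. The 3′ exon (0.88), exon 2 (0.73) and exon 4 (0.83) did not overlap between groups at D2, and the others did. Of 5355 windows of 101 bases in the Scd2 transcript, 47 also occur in the Scd1 transcript, so reads from those windows cannot be told apart.

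**Figure D4:**
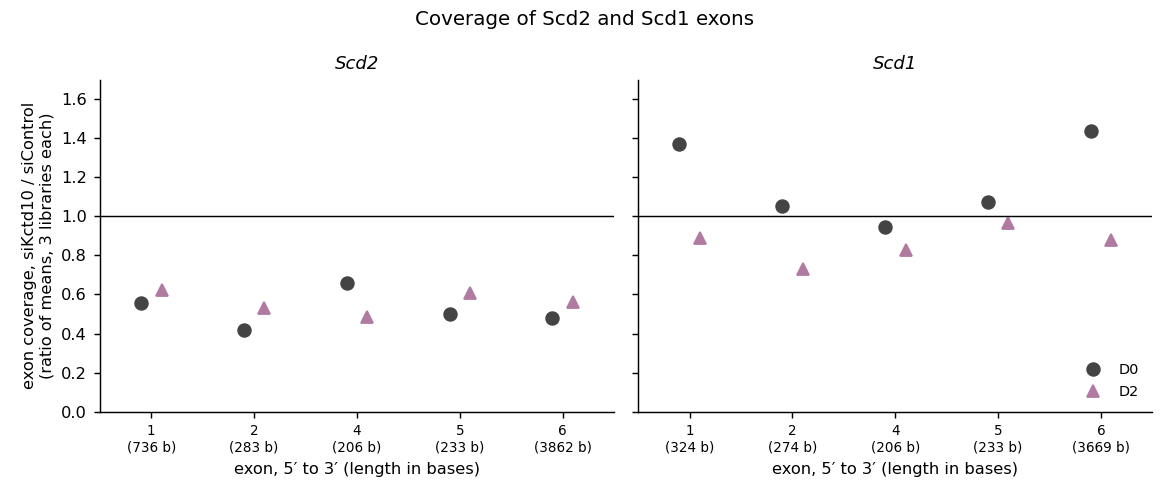
Ratio of mean exon coverage in siKctd10 over siControl libraries (y axis, 3 libraries each) for the exons of Scd2 on the left and Scd1 on the right, in order from 5′ to 3′, with circles for D0 and triangles for D2. Every Scd2 exon lies below 1 on both days, between 0.42 and 0.66. In Scd1 4 of 5 exons lie above 1 at D0, the first and last of them at 1.37 and 1.44 and the others at 1.05 and 1.07. At D2 every Scd1 exon drawn lies below 1, between 0.73 and 0.96. Exon 3 of each gene is not drawn because its coverage was 0 in some libraries.

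Beside the Scd2 fall, genes with the 7-base siKctd10 site were counted as a description. At D0, 12 of 129 such genes were called lower and 3 higher (9.30% lower), against 112 lower and 187 higher of 11854 tested genes without the site (0.945% lower). At D2, 10 of 129 were lower and 2 higher (7.75% lower), against 231 lower and 360 higher of the 11854 (1.95% lower). Scd2 is itself counted among the 129 and among those lower on each day. Genes with and without the site were not matched for 3′ UTR length or level. Insig1, the other member with the site, rose at D0 and did not pass at D2. Whether the site has a part in the level of Scd2 was not tested.

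At D2 the same comparison left 1 member higher and 1 lower. Over all tested genes 2.83% were called higher and 1.92% lower, 4.75% in all. Cyp51 had 311, 293 and 275 TPM in D2 siKctd10 and 236, 197 and 226 TPM in D2 siControl libraries. Scd2 had 1170.3, 1264 and 1203 TPM in D2 siKctd10 and 1928, 2090.0 and 2080.4 TPM in D2 siControl libraries. Neither overlapped, with log2 fold changes of 0.42 for Cyp51 (SE 0.08, limma adjusted p = 0.02) and -0.74 for Scd2 (SE 0.06, adjusted p = 0.00017). Scd2 was called in all 16 alternatives, and Cyp51 lost its call in 6, among them without the D2 siControl library numbered 2 and without the D2 siKctd10 libraries numbered 1 and 2, when Scd2 was the only member called.

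The other members that had risen at D0 did not pass at D2. Idi1 had 138, 134 and 132 TPM in D2 siKctd10 and 118, 125 and 131 TPM in D2 siControl libraries. Msmo1 had 534, 489 and 436 TPM in D2 siKctd10 and 426, 437 and 445 TPM in D2 siControl libraries. Fasn had 141, 165 and 126 TPM in D2 siKctd10 and 113, 127 and 129.6 TPM in D2 siControl libraries. Idi1 did not overlap between groups by a small margin, whereas Msmo1 and Fasn did.

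Stard4 had 93.0, 103 and 87.4 TPM in D2 siKctd10 and 80.5, 79.8 and 87.2 TPM in D2 siControl libraries, again with a narrow gap. Fdft1 had 84.0, 96.5 and 82.6 TPM in D2 siKctd10 and 86.1, 93.0 and 94.1 TPM in D2 siControl libraries, which overlapped. Scd1 had 1699.6, 1662 and 1646 TPM in D2 siKctd10 and 1690.0, 1824 and 1889.8 TPM in D2 siControl libraries, with overlap. Insig1 had 192, 188 and 168 TPM in D2 siKctd10 and 208, 191 and 201 TPM in D2 siControl libraries, and Srebf1 had 97.0, 99.0 and 95.6 TPM in D2 siKctd10 and 114, 111 and 100.5 TPM in D2 siControl libraries. For both regulators the siKctd10 mean was the lower one, with overlap for Insig1 and none for Srebf1, and log2 fold changes of -0.13 and -0.15 that did not pass.

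Some members called on neither day between siKctd10 and siControl had no overlap between groups at D2. The siKctd10 libraries all lay above the siControl libraries for Ebp (0.83), Scap (0.29), Abca1 (0.25) and Npc1 (0.20), and all below them for Dhcr7 (-0.19). None of these log2 fold changes passed, and the gaps are given as a description only. Lss had 22.9, 51.2 and 52.5 TPM in D2 siKctd10 and 16.6, 15.1 and 24.6 TPM in D2 siControl libraries, with 1 siKctd10 library inside the siControl range, and did not pass (log2 fold change 1.07, SE 0.39, limma adjusted p = 0.17). Acat2 had 228, 2.79 and 9.48 TPM in D2 siKctd10 and 188, 168 and 191 TPM in D2 siControl libraries, again with a last exon near 0 where TPM was low. Hmgcs1 had 623, 276 and 643 TPM in D2 siKctd10 and 448, 583 and 594 TPM in D2 siControl libraries, so that 1 siKctd10 library lay below the rest.

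The members' median at D2 was 0.05, against 0.08 over all genes, and 18 of 31 were above 0, against 60.0% of all genes. With median-ratio scaling it was -0.04, with quantile normalization -0.02 and with voom -0.03, so the sign of that median depended on the scaling. Relative to the median of all genes the members lay 0.03 lower, and 0.04, 0.03 and 0.04 lower with these scalings. At D2 the muscle markers also differed, with 4 of 8 called lower in siKctd10 (Myod1, Myf5, Myog and Mymk) and none higher, and of the adipocyte markers Cebpa was called higher (log2 fold change 1.03, limma adjusted p = 0.0034). Their part in the D2 values was not tested. At D0 none of the 8 was lower and 1, Acta1, was higher.

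Whether the siRNA difference itself changed with the day was tested as an interaction. Of 31 members 2 had a lower siKctd10 effect at D2 than at D0, and none a higher one. Over all tested genes 0.367% were called lower and 0.375% higher, 0.742% in all. For Scd1 the interaction was -0.69 on the log2 scale (SE 0.11, limma adjusted p = 0.02), from an effect of -0.11 at D2 against one of 0.58 at D0. For Fdft1 it was -0.66 (SE 0.12, adjusted p = 0.041), from -0.06 at D2 against 0.60 at D0. Insig1 (-0.51, adjusted p = 0.05) and Srebf1 (-0.63, adjusted p = 0.051) lay at the threshold and were not called, and Idi1 (-0.46, adjusted p = 0.1) and Msmo1 (-0.43, adjusted p = 0.23) were not either. That 9 members rose at D0 and 1 at D2 is therefore shown to be a difference between days for Scd1 and Fdft1 alone. For Scd2 the interaction was 0.21 (SE 0.08, adjusted p = 0.38), with a 95% interval of 0.03 to 0.39.

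The Fdft1 call was lost in 13 of 21 alternatives and the Scd1 call in 6. Neither was called without the D0 siControl libraries numbered 1 or 2, the D2 siControl libraries numbered 2 or 3, or the D2 siKctd10 library numbered 1. The sizes stayed between -0.73 and -0.51 for Fdft1 and between -0.76 and -0.63 for Scd1. Without the D0 siKctd10 library numbered 3 Fdft1 was not called (adjusted p = 0.058) and Idi1 was (-0.52, adjusted p = 0.046), and without the D2 siKctd10 library numbered 3 Fdft1 was not called (adjusted p = 0.09). Median-ratio scaling called 5 members, all of them lower.

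The last comparisons asked how the set differed between D2 and D0 within each siRNA. They share their libraries with the comparisons above, so the values are given side by side. In siKctd10 cells 5 members rose and 5 fell, and over all tested genes 23.1% were higher and 13.3% lower, 36.4% in all. In siControl cells 12 members rose and none fell, and over all tested genes 21.4% were higher and 14.0% lower, 35.5% in all. The members' median log2 fold change was -0.13 in siKctd10 cells and 0.27 in siControl cells, against 0.12 and 0.09 over all genes. Median-ratio scaling moved the median of all genes to 0.00 and 0.01 and that of the members to -0.25 and 0.17, so the members lay 0.25 below all genes in siKctd10 and 0.17 above them in siControl cells. With that scaling 4 members were called higher and 10 lower in siKctd10 cells, and 11 higher and 2 lower in siControl cells.

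**Figure D5:**
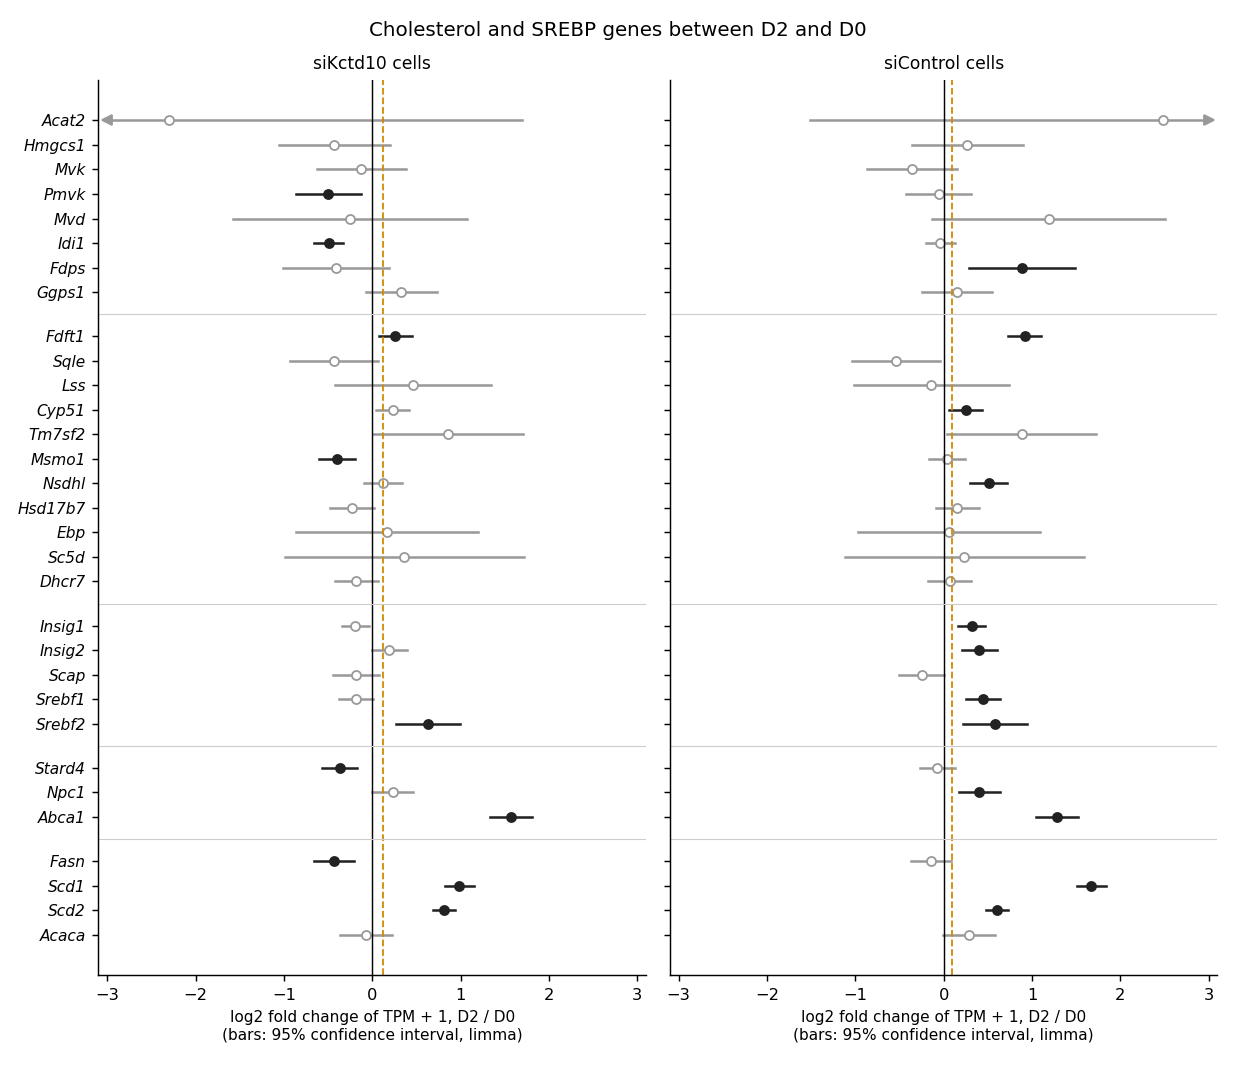
Log2 fold change of TPM + 1 (x axis, D2 over D0) with its 95% confidence interval from limma for the 31 members in pathway order, in siKctd10 cells on the left and siControl cells on the right; filled black points passed an adjusted p of 0.05, and the dashed line is the median of all genes. Filled points lie on both sides of 0 in siKctd10 cells, 5 on each, and all 12 lie right of 0 in siControl cells.

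Scd1, Scd2, Abca1, Fdft1 and Srebf2 rose with the day in both arms. Scd1 averaged 1669 TPM at D2 and 843 TPM at D0 in siKctd10 cells, and 1801 TPM at D2 and 564 TPM at D0 in siControl cells, with log2 fold changes of 0.99 and 1.67. Scd2 averaged 1212 TPM at D2 and 689 TPM at D0 in siKctd10 cells, and 2033 TPM at D2 and 1338 TPM at D0 in siControl cells, with log2 fold changes of 0.81 and 0.60. For both desaturases every D2 library lay above every D0 library of its arm (limma adjusted p of 2.4e-05 at most).

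Abca1 had 3.99, 4.38 and 4.75 TPM in D2 siKctd10 and 0.856, 0.820 and 0.731 TPM in D0 siKctd10 libraries. In siControl cells it had 3.31, 3.90 and 3.35 TPM at D2 and 0.835, 0.810 and 0.929 TPM at D0. No day overlapped, and the mean TPM was 5.45 times and 4.10 times as high at D2. The log2 fold changes of 1.57 and 1.28 (limma adjusted p = 3e-06 and 9.8e-06) understate this because 1 was added to a low TPM.

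Fdft1 rose by 0.26 on the log2 scale in siKctd10 cells (limma adjusted p = 0.032) and by 0.92 in siControl cells (adjusted p = 1.8e-05). Its level at D2 differed little between arms, and the arms differed at D0, as given above. Srebf2 had 317, 395 and 269.5 TPM in D2 siKctd10 and 198, 258 and 176 TPM in D0 siKctd10 libraries, and 291, 299 and 296 TPM in D2 siControl and 184, 189 and 222 TPM in D0 siControl libraries. Its log2 fold changes were 0.64 (adjusted p = 0.012) and 0.58 (adjusted p = 0.019), and the days did not overlap in either arm. The siControl call of Srebf2 was lost without the D0 siControl libraries numbered 1 or 2 or the D2 siControl libraries numbered 2 or 3. The Fdft1 call in siKctd10 cells was lost in 9 of 16 alternatives, with all 3 scalings and without any 1 of the D0 siKctd10 libraries or the D2 siKctd10 library numbered 2 among them.

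The other 7 members that rose in siControl cells were Fdps, Cyp51, Nsdhl, Insig1, Insig2, Srebf1 and Npc1. None of them passed in siKctd10 cells, and none had an interaction past the threshold, so their day effects are not shown to differ between arms. In siKctd10 cells Cyp51 (0.23, limma adjusted p = 0.053), Npc1 (0.23, adjusted p = 0.11), Insig2 (0.19, adjusted p = 0.12) and Nsdhl (0.12, adjusted p = 0.35) had the same sign as in siControl cells, while Fdps, Insig1 and Srebf1 had the opposite sign. Fdps had 196, 183 and 155 TPM in D2 siControl libraries (log2 fold change 0.89, limma adjusted p = 0.027), and 179, 174 and 99.5 TPM in D2 siKctd10 libraries (-0.41, adjusted p = 0.27). Its siControl call was lost in 6 of 16 alternatives, among them without the D0 siControl libraries numbered 1 or 3 and the D2 siControl libraries numbered 1 or 2. Insig1 rose by 0.32 in siControl cells (adjusted p = 0.0047) and had -0.19 in siKctd10 cells (adjusted p = 0.051). Srebf1 rose by 0.45 in siControl cells (adjusted p = 0.0025) and had -0.18 in siKctd10 cells (adjusted p = 0.13).

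Nsdhl had 137, 123 and 122 TPM in D2 siKctd10 and 120.5, 122 and 139 TPM in D2 siControl libraries, and rose by 0.51 with the day in siControl cells (limma adjusted p = 0.002). Insig2, the other INSIG gene, had 144, 129 and 128 TPM in D2 siKctd10 and 137, 129 and 139.6 TPM in D2 siControl libraries. At D0 Insig2 had 122, 127 and 104 TPM in siKctd10 and 104, 105 and 97.5 TPM in siControl libraries. Npc1 had 53.2, 53.8 and 52.8 TPM in D2 siKctd10 and 47.6, 41.3 and 49.9 TPM in D2 siControl libraries. Insig2 and Npc1 rose by 0.40 and 0.41 in siControl cells (adjusted p = 0.0054 and 0.012). The Cyp51 rise of 0.25 in siControl cells (adjusted p = 0.04) was lost in 11 of 16 alternatives, including without any 1 of the D0 siControl libraries or the D2 siControl libraries numbered 1 or 3.

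The 5 members that fell with the day in siKctd10 cells were Idi1, Msmo1, Stard4, Fasn and Pmvk. The log2 fold changes were -0.49 for Idi1 (limma adjusted p = 0.00054), -0.40 for Msmo1 (adjusted p = 0.0067), -0.37 for Stard4 (adjusted p = 0.009) and -0.43 for Fasn (adjusted p = 0.008). In siControl cells the same 4 genes had -0.04, 0.03, -0.07 and -0.14, and none passed. These were genes that siKctd10 had raised at D0, and the D0 siKctd10 libraries enter both comparisons. Pmvk had 25.0, 30.3 and 32.2 TPM in D2 siKctd10 and 35.4, 29.5 and 37.7 TPM in D2 siControl libraries, and its fall of -0.50 in siKctd10 cells (adjusted p = 0.038) was lost in 6 of 16 alternatives, including without any 1 of the D0 siKctd10 libraries or the D2 siKctd10 libraries numbered 1 or 2.

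By role, 2 of 8 enzymes to farnesyl and geranylgeranyl diphosphate fell with the day in siKctd10 cells and 1 of 8 rose in siControl cells. Of 11 squalene and sterol enzymes 1 rose and 1 fell in siKctd10 cells, and 3 rose in siControl cells. Of 5 regulators 1 rose in siKctd10 cells and 4 rose in siControl cells. Against the 23.1% of all genes higher and 13.3% lower in siKctd10 and the 21.4% higher in siControl cells, counts such as 1 of 8 (12.5%) and 3 of 11 (27.3%) lay near the share of all genes, and with so few genes a role no count is read as particular to it. The members that did not pass had log2 fold changes from -2.30 (Acat2) to 0.86 (Tm7sf2) in siKctd10 cells and from -0.54 (Sqle) to 2.49 (Acat2) in siControl cells. In siKctd10 cells Hsd17b7 (-0.35), Dhcr7 (-0.31) and Insig1 (-0.22) were called lower by limma without the D0 library numbered 3, with Pmvk and Fdft1 not called, and Cyp51 (0.28) was called higher without the D2 library numbered 3.

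Genes around the set were counted from lists of sterol and lipid genes. Over all tested genes 1.48% were called higher and 0.964% lower at D0, and 2.83% higher and 1.92% lower at D2. With so few genes a list, no count is read as particular to it. Calls of these genes under the alternatives are not given. None of 10 genes that process or degrade SREBP and its partners was called at D0, and at D2 Rnf145, a ubiquitin ligase of the endoplasmic reticulum that senses sterol, was lower (log2 fold change -0.32, limma adjusted p = 0.028). Of 23 tested genes of sterol transport, esterification and efflux 2 rose and 1 fell at D0. Lrp1, a receptor of the lipoprotein receptor family, averaged 227 ± 19.7 TPM in D0 siKctd10 and 125 ± 4.79 TPM in D0 siControl libraries (SD, n = 3 each; 0.85, adjusted p = 0.0043). Gramd1a, which moves cholesterol from the plasma membrane to the endoplasmic reticulum, rose by 0.63 (adjusted p = 0.047). Ch25h, which makes the oxysterol that blocks SREBP processing, had 22.8, 23.3 and 17.1 TPM in D0 siKctd10 and 37.0, 40.6 and 36.4 TPM in D0 siControl libraries (-0.83, adjusted p = 0.015).

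At D2 Lrp1 (0.50, limma adjusted p = 0.03) and Soat1, which esterifies cholesterol for storage (0.51, adjusted p = 0.016), were higher and none of the 23 was lower. Of 15 tested genes of other fatty acid synthesis and desaturation, Acsl4, an acyl-CoA synthetase for polyunsaturated fatty acids, and the desaturase Fads2 rose at D0. Fads2 averaged 599.6 ± 5.24 TPM in D0 siKctd10 and 418 ± 31.1 TPM in D0 siControl libraries (SD, n = 3 each; 0.52, adjusted p = 0.014), and Acsl4 rose by 0.54 (adjusted p = 0.0028). At D2 Acsl4 alone of these 15 passed (0.33, adjusted p = 0.02). None of 13 genes that use isoprenoids and none of 5 tested redox partners and ketogenic relatives was called on either day.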

How the data were processed

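Per the file headers, the authors estimated abundance with StringTie 1.3.3b against a fixed set of 63759 mm10 transcripts, and the deposited values per transcript are coverage, FPKM and TPM. Per the submitters' processing notes, StringTie 1.1.3, HISAT, SAMtools, DESeq2 and build mm10 were used, in roles not given in the sources used here. No read counts were used here, so TPM was tested on a log2 scale.

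Transcripts were matched to GENCODE M21 genes by identical introns (42608) or at least 50% of exon bases (13473), and 7678 stayed unmatched, with 3.82 to 4.63% of TPM. TPM was summed per gene over 25746 genes, of which 13069 reached a TPM of 1 in 3 or more libraries and were tested. With limma 3.58.1 in R 4.3.3, log2(TPM + 1) was modelled by 4 group means (trend and robust options, 8 residual degrees of freedom), with Benjamini-Hochberg adjustment over all kept genes, two-sided, at a threshold of 0.05. The script was tested on simulated data. Fold changes are on that scale and understate the change of low genes. Read pairs were estimated from deposited coverage at 202 bases per pair, so no counting interval was computed. Exon coverage is the deposited value per M estimated pairs, for exons over 100 bases.

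Every member is accounted for, and those past the threshold in some comparison are given in every library. Genes of the surrounding lists are named where they passed in a siKctd10 comparison. The members and lists were chosen with earlier results of these data known. Alternatives were the pseudocount, the filter, scaling, voom, the transcripts and exons used, the replicate number as a block, the groups in the fit and each library left out.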

Additional observations from a re-analysis of the deposited data

Results flagged for a closer look

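The siKctd10 effect on Scd1 differed between days: the interaction, the effect at D2 minus that at D0, was -0.69 on the log2 scale (limma adjusted p = 0.02). For Fdft1 it was -0.66 (adjusted p = 0.041). In both, the groups did not overlap at D0 and overlapped at D2.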

How the results depend on the processing

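Of 36 member results past the threshold over the 5 comparisons, 584 values were computed under alternatives, of which 482 stayed called, 102 lost the call and none changed sign. Of 119 member results that did not pass, 20 were called under some alternative. Members called at D0 numbered 10, but 1 with only the 2 groups compared in the fit and 4 to 10 when 1 library was left out. At D2 they numbered 2, but 1 with median-ratio scaling, 1 with only the 2 groups compared, 1 with the sum over exons above 0 in every library, an alternative chosen after seeing the data, and 1 to 2 when 1 library was left out. The interaction called 2, but 5 with median-ratio scaling, 1 with those exons, and 0 to 2 when 1 library was left out; the cause was not tested. The count of both directions together stayed within 1.5 times in all 16 alternatives of D2 against D0, in each arm. The split by direction moved more. In siKctd10 cells 5 were lower, but 10 with median-ratio scaling and 10 with voom. In siControl cells 0 were lower, but 2 with median-ratio scaling, 3 with voom and 3 with those exons. Over all genes, siKctd10 called 320 at D0 (60.6% higher) and 621 at D2 (59.6% higher), but 72 and 259 with only the 2 groups compared and 118 to 223 and 315 to 415 when 1 library was left out. With median-ratio scaling 47.6% of 395 and 39.5% of 671 were higher, with quantile normalization 47.5% of 305 and 46.5% of 636, with voom 46.3% of 387 and 45.5% of 662, and with those exons 43.4% of 454 and 45.3% of 638. For D2 against D0 the higher share was 63.5% in siKctd10 and 60.5% in siControl cells, but 51.8% and 52.0% with median-ratio scaling and 50.4% and 49.0% with quantile normalization. The interaction called 97 genes, but 62 with a pseudocount of 0.1, 42 with the replicate block and 52 to 82 when 1 library was left out.

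The libraries D0 siKctd10 and D2 siKctd10 numbered 3 deviated together (correlation 0.20). Between days in siKctd10 cells, libraries numbered 1 and 2 correlated at 0.09 and 0.04, and those of unlike number at -0.14 to 0.06. In siControl cells the values were 0.005 to 0.016 for the same number and -0.043 to 0.036 for unlike numbers. The other same-numbered pairs of the 18 lay at -0.02 to 0.09, so the numbers as a whole were not taken as pairing the samples. A pairing of the siKctd10 libraries alone was not tested, and D2 against D0 was fitted unpaired. With the replicate number as a block, members called numbered 9 at D0, 2 at D2, 1 for the interaction, 10 in siKctd10 and 11 in siControl cells. The block gives each number the same effect in all 4 groups. All members but Abca1 passed a filter of 5 on mean TPM, so low level limits Abca1 alone. The estimates of single exons limit more: of 481 member exons 178 had coverage 0 in some libraries and not in others.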
